A study of Mus musculus with 12 samples.

Results

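Rflnb, Fam102a and Rin3 are 3 less-studied genes whose values were higher in thymocytes of AND-TCR–transgenic mice than in those of C57BL/6 mice. They were chosen by these measured values, the intensities on the AND and C57BL/6 arrays, so the difference is described here without a test. The rule took every probe set annotated with 1 of these symbols and no other. It found 4 of the 36899 probe sets on the arrays, 2 for Rflnb and 1 each for Fam102a and Rin3. Of these, 2 lay on the U74Av2 array, 2 on U74Bv2 and 0 on U74Cv2.

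The study compared RNA of the total thymocytes of adult AND-TCR–transgenic mice on the H-2b background (AND) with that from C57BL/6 mice, the wild type, which also carry H-2b. The AND mice carry a rearranged T cell receptor (TCR) that recognizes peptide bound to MHC class II. Each group had 2 hybridizations on each of the 3 Affymetrix array types, 12 arrays in all. The study's methods call the repeats independent experiments, but neither they nor the labels tell if separate mice were used, so that p-values and SDs measure only the spread between hybridizations, which may be technical.

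Thymocytes pass from a CD4/CD8 double-positive (DP) stage, in which TCR genes are still rearranged, to CD4 or CD8 single-positive (SP) stages once their receptor has bound self peptide and MHC in positive selection. A TCR that fits the MHC of the host drives many cells along this path. The 3 genes encode proteins that are not part of the TCR itself. Rflnb encodes refilin B, which binds filamins, the proteins that cross-link actin filaments and tie them to integrins, and which helps to bundle actin in mouse cells. Fam102a, also called Eeig1 (early estrogen-induced gene 1), encodes a protein that joins the receptor RANK, Gab2, PLCγ2 and Tec kinases in mouse osteoclast precursors. Rin3 encodes a Ras and Rab interactor, a protein with a VPS9 domain that loads GTP onto Rab5-family GTPases of early endosomes and that binds BIN1 and CD2AP in human cells.

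Intensities are on a linear scale that the authors had set to a common level for all arrays. A detection limit of 2 noise SDs was estimated from the negative values and was 420.8 on U74Av2, 869.4 on U74Bv2 and 1579 on U74Cv2. Lower values were raised to the limit and log2-transformed, so that folds are lower bounds wherever 1 group read below it. The limit was exceeded by 23.2% to 48.9% of an array's probe sets. A probe set entered the fit if both AND arrays or both C57BL/6 arrays exceeded it, which held for 12845. With 2 arrays per group, the number of arrays limits the precision of every value.

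The sequences just before the start of each gene are shown because all 3 genes were higher in AND thymocytes and lie on different chromosomes (11, 2 and 12). They are the 250 bases before the annotated start in RefSeq on GRCm38.p6, which gives 1 start for Rflnb, 1 for Fam102a and 2 for Rin3. They are written 5′ to 3′ in the direction of the gene. Capitals mark GC boxes (GGGCGG) and CCAAT boxes (CCAAT), each searched on both strands, so that CCGCCC is a GC box of the other strand.
Rflnb (chr11:76027783-76028032, minus strand): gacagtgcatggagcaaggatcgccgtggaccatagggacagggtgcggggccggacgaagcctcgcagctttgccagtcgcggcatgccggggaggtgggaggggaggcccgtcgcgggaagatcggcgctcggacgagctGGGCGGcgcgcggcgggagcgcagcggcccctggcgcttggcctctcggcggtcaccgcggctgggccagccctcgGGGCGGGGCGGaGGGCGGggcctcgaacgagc
Fam102a (chr2:32535109-32535358, plus strand): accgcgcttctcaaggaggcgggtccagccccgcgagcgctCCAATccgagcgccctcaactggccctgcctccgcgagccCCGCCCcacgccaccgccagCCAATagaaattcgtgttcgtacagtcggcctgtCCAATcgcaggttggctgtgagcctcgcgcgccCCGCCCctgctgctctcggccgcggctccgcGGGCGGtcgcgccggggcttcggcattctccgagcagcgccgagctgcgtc
Rin3, first start (chr12:102282824-102283073, plus strand): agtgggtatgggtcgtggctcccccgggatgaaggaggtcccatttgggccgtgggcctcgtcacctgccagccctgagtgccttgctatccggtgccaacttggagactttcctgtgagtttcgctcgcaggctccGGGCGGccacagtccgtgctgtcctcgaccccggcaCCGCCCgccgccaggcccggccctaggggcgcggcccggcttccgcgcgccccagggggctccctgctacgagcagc
Rin3, second start (chr12:102283391-102283640, plus strand): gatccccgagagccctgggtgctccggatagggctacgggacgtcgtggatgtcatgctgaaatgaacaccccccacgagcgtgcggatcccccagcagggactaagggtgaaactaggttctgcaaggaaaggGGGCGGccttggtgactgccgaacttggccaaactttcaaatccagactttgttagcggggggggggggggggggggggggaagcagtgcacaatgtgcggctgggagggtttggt
GC boxes stood 4 times in the Rflnb sequence, beginning 108, 32, 27 and 20 bases before the start, where those at 32 and 27 share 1 base. The Fam102a sequence had 3 GC boxes and was the only one of the 4 with CCAAT boxes, which began 209, 149 and 115 bases before the start. The 2 sequences of Rin3 had 2 and 1 GC boxes. Among all 32851 RefSeq promoter sequences of this length, 32.7% held a GC box and 33.8% a CCAAT box. The sequence of Rflnb had 76% G and C and 34 CpG, and that of Fam102a had 72% and 35. Those of Rin3 had 71.2% and 23 at the first start and 62% and 12 at the second, against medians of 52.4% and 6 over all sequences. A TATA box (TATAAA, both strands) was found in 0 of the 4 and in 12.4% of all sequences. Also searched on both strands were CACGTG (E box), CGGAAG (ETS), TGTGGT (RUNX) and CACCC (KLF). They stood in 0, 1, 0 and 2 of the 4 sequences and in 6.02%, 13.6%, 14% and 52% of all. Shares among sequences of a like G and C content were not taken. A match is a description of these letters only.

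Rflnb was measured best by probe set 96791_at on U74Av2. Its intensity was 2892 and 3232 on the AND arrays, against 501 and 596 on the C57BL/6 arrays. Both AND values were far above both C57BL/6 values, and the C57BL/6 values were only just above the detection limit. The means were 3062 ± 240 in AND and 548 ± 67.4 in C57BL/6 thymocytes (SD, n = 2 each). The ratio of AND to C57BL/6 was 5.78 for the first hybridizations and 5.42 for the second, and the fitted log2 fold change was 2.48 ± 0.30 (± standard error here and for all fitted log2 fold changes that follow), a fold of 5.60. Hybridizations of the same group differed much less, by 1.12-fold in AND and 1.19-fold in C57BL/6.

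The other Rflnb probe set, 111360_at on U74Bv2, read low. It had 2034 and 1216 on the AND arrays, against 428 and 71.6 on the C57BL/6 arrays, of which both were under the limit of 869.4. The groups did not overlap, but the AND values differed from each other, with the second at 0.598 of the first. The AND level was therefore at least 2.34-fold higher in the first hybridizations and at least 1.40-fold higher in the second. The fitted log2 fold change was at least 0.86 ± 0.29, and it was 0.48 without the first AND array and 1.23 without the second. This probe set entered the fit only through the AND arrays, so a difference was built into its selection. The ratio of the unfloored means, 1625 ± 578 in AND and 250 ± 252 in C57BL/6 (SD, n = 2 each), was 6.50, on readings that in C57BL/6 could not be told from noise.

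Fam102a was measured by probe set 99451_at on U74Av2. The intensities were 5960 and 6696 on the AND arrays, against 1218 and 1301 on the C57BL/6 arrays. All 4 values were well above the limit, and each group was tight, with means of 6328 ± 520 in AND and 1260 ± 58.8 in C57BL/6 thymocytes (SD, n = 2 each). The ratios were 4.89 in the first and 5.15 in the second hybridizations. The fitted log2 fold change was 2.33 ± 0.19, a fold of 5.02. The lower AND value was 4.58 times the higher C57BL/6 value.

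Rin3 was measured by probe set 109405_at on U74Bv2. Its intensity was 5764 and 6822 on the AND arrays, against 2111 and 1689 on the C57BL/6 arrays, all above the limit. The groups did not overlap, and the lower AND value was 2.73 times the higher C57BL/6 value. The means were 6293 ± 748 in AND and 1900 ± 298 in C57BL/6 thymocytes (SD, n = 2 each). The ratio was 2.73 in the first and 4.04 in the second hybridizations, a wider gap than that of Fam102a or of Rflnb on U74Av2, as the second AND array read higher and the second C57BL/6 array lower. The fitted log2 fold change was 1.73 ± 0.21, a fold of 3.32.

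**Figure D1:**
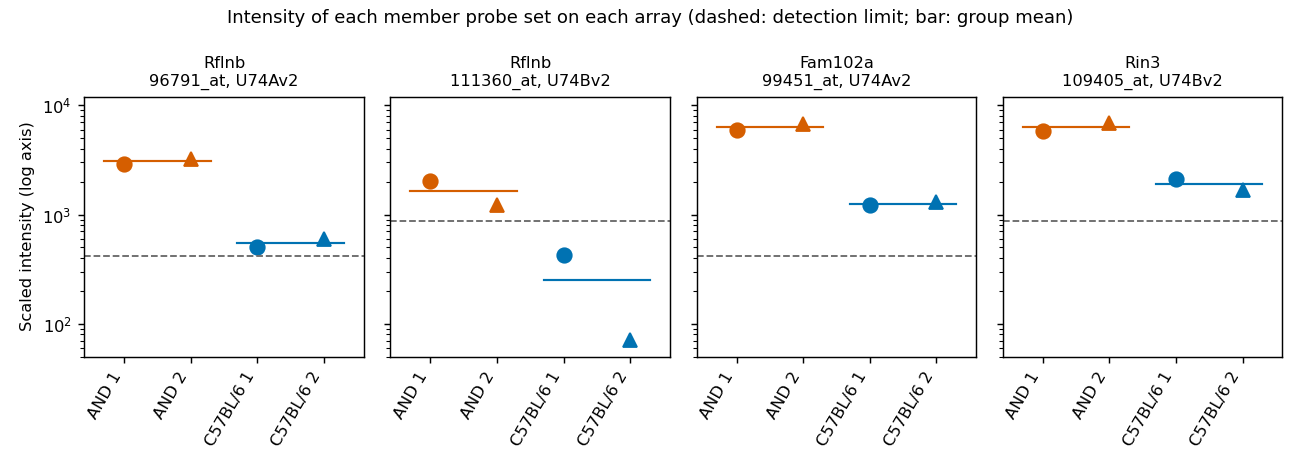
Scaled intensity (log axis) of the 4 probe sets of Rflnb, Fam102a and Rin3 on the 2 AND and 2 C57BL/6 arrays (circles, first hybridizations; triangles, second), with bars for group means and dashed lines for the detection limit. Both AND values exceed both C57BL/6 values in every panel, and only Rflnb 111360_at has C57BL/6 values under the limit.

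In both hybridizations all 4 probe sets were higher in AND thymocytes, which the choice of the genes fixes. Over all probe sets, both AND arrays lay above both C57BL/6 arrays for 2959 of 12845, or 23%. Among the 10053 probe sets that exceeded the limit on every array, Rflnb 96791_at had the highest fold, Fam102a the 2nd highest and Rin3 the 12th. Among all 12845, where some folds are bounds, they were 4th, 7th and 39th. No rank is given for Rflnb 111360_at, whose fold is only a bound. These ranks describe the values by which the genes were chosen.

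**Figure D2:**
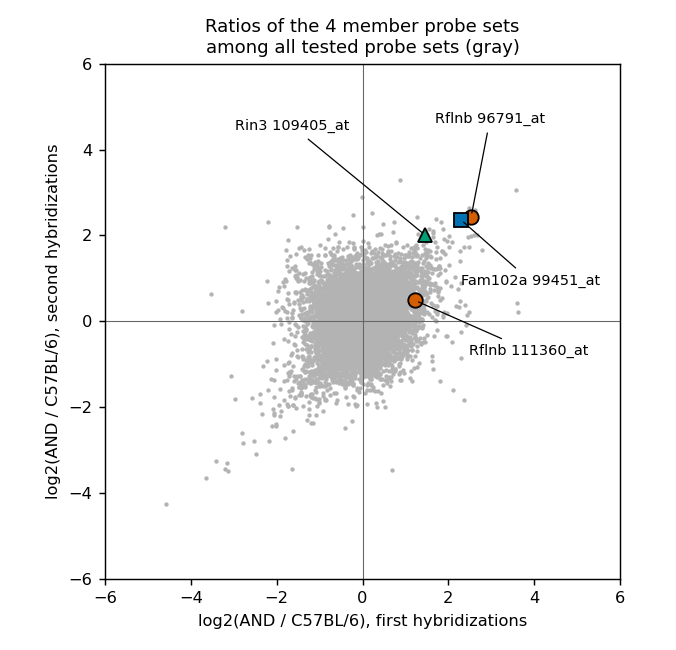
Log2 ratio of AND to C57BL/6 in the second hybridizations against that in the first, for 12845 probe sets (gray) and the 4 probe sets of Rflnb (circles), Fam102a (square) and Rin3 (triangle), after raising values under the detection limit to it. Rflnb 96791_at and Fam102a lie side by side above 2 on both axes, Rin3 lies at 1.45 and 2.01, and Rflnb 111360_at lies at 1.23 and 0.48.

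The tissue and the groups were described with marker genes, from lists chosen with earlier results of these data known. Cd3e, a subunit of the TCR complex, read 15753 and 19860 in AND and 16452 and 17576 in C57BL/6 thymocytes (log2 fold change 0.06, limma adjusted p = 0.914). Of 7 tested DP markers 4 were lower in AND and 0 were higher, among them the recombinase gene Rag1 (log2 fold change −2.25, limma adjusted p = 0.00222). Of 6 tested markers of mature SP thymocytes 3 were higher, namely Cd53, Ms4a4b and Slfn1, and 0 were called lower. Il7r of the same list went the other way, with 1425 and 1426 in AND and 2176 and 1729 in C57BL/6 thymocytes (log2 fold change −0.44, limma adjusted p = 0.537). S1pr1 had a log2 fold change of 0.68 (limma adjusted p = 0.362), and Klf2 was not tested. Ccr7, the chemokine receptor of mature thymocytes, had a log2 fold change of 2.01 ± 0.34 (limma adjusted p = 0.051). Of 7 tested T lineage genes 2 were lower, the coreceptor genes Cd8a (−0.87) and Cd8b1 (−1.27), and 0 were higher. Cd4, the other coreceptor gene, was not called, but both AND values lay below both C57BL/6 values. Cd4 read 7889 and 10229 in AND and 12786 and 13657 in C57BL/6 thymocytes (log2 fold change −0.56, limma adjusted p = 0.194). Without adjustment, the T lineage list had 3 genes lower and 0 higher at a limma p under 0.05. The summed intensity of the DP list was 58759 to 62100 in AND and 156678 to 165272 in C57BL/6 thymocytes, and that of the mature SP list was 51540 to 59738 in AND and 17646 to 20195 in C57BL/6 thymocytes. The largest part of the mature SP sums came from Ms4a4b 114822_f_at, with 31523 and 26949 in AND and 9558 and 8837 in C57BL/6. Over all probe sets limma called 62 higher (0.483%) and 73 lower (0.568%) at an adjusted p under 0.05, and 959 (7.47%) and 836 (6.51%) at an unadjusted p under 0.05. In such bulk RNA, more cells of a type and more RNA per cell cannot be told apart. The part of the DP and SP shares in the levels of Rflnb, Fam102a and Rin3 was not tested.

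Of the B cell list, 6 of 8 genes were tested and 0 were called, with a summed intensity of 32074 to 33031 in AND and 37749 to 42010 in C57BL/6 thymocytes. Of the macrophage and dendritic cell list, 6 of 8 were tested and 0 were called, with sums of 5423 to 5671 in AND and 2885 to 5501 in C57BL/6. At an unadjusted p under 0.05, 1 B cell gene was higher and 2 were lower, and 0 macrophage and dendritic cell genes were either. The lists of mast cells, thymic epithelium and red blood cells had 1 tested gene each, of which 0 were called. Among these, Hba-a1, a hemoglobin gene of red blood cells, read 6639 and 4378 in AND and 9709 and 11407 in C57BL/6 thymocytes (log2 fold change −0.96 ± 0.22, limma adjusted p = 0.107, lower at an unadjusted p under 0.05). Its part in the levels of the 3 genes was not tested. Cr2 of B cells, Adgre1 and Itgam of macrophages, Kit and Fcer1a of mast cells and Foxn1 and Krt5 of thymic epithelium were under the limit on all arrays. Of thymic epithelium, Krt8 read 558 and 387 in AND and −327 and −111 in C57BL/6, and Psmb11 863 and 1239 against 72.2 and 366. Cpa3 of mast cells read 346 and 480 in AND and 158 and 243 in C57BL/6 at 1 probe set. Each was over the limit on only 1 AND array and was not tested. Under the limit, Kit also read higher in AND, as did the other Cpa3 probe set (405 and 373 against 69.4 and 228 in C57BL/6). Fcer1a and 1 probe set each of Ms4a2, Foxn1 and Epcam read lower there. The tested Epcam and Ms4a2 probe sets overlapped between the groups. Genes that mark the sex of mice followed the group at their tested probe sets. At its U74Av2 probe set, Xist, which is transcribed from the inactive X chromosome, was under the limit on both AND arrays and read 2878 and 3001 on the C57BL/6 arrays. Its U74Bv2 probe set did not follow this and was not tested. It read 417 and 1190 in AND and 563 and 357 in C57BL/6, over the limit only on the second AND array. The Y-linked Eif2s3y read 1649 and 1529 on the AND arrays and was under the limit on both C57BL/6 arrays. The fluidics module also followed the group (4 for AND, 2 for C57BL/6). The labels give no sex, and sex, module and genotype cannot be told apart here. The header of the first C57BL/6 array of U74Av2 noted a second scan. Without that array, the log2 fold change was 2.36 for Rflnb 96791_at and 2.28 for Fam102a.

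The genes with the pattern most like each of the 3 were sought among probe sets with 1 symbol that exceeded the limit on all 4 arrays of the same array type. Likeness was the root mean square difference of log2 intensities after each probe set was centered on its mean over the 4 arrays, where a small value means a close match. This measure depends largely on the fold of AND over C57BL/6, by which the 3 genes were chosen. The nearest probe sets are therefore mostly those of a like fold, and the likeness is a description only. On U74Av2, with 4175 probe sets compared, Fam102a was nearest to Rflnb (0.0963). Next were Gimap4, the GTP-binding protein IAN1 (0.123), Slfn1, a schlafen gene (0.315), Ms4a4d, a membrane-spanning protein (0.388), and Gnb1, a G protein beta subunit (0.410). The same 4 genes and Rflnb itself were the nearest to Fam102a, in the order Gimap4 (0.0448), Rflnb (0.0963), Slfn1 (0.244), Ms4a4d (0.297) and Gnb1 (0.318). Gimap4 read 17573 and 18634 on the AND arrays, against 3617 and 3934 on the C57BL/6 arrays, which gave a fold of 4.80 beside 5.02 for Fam102a and 5.60 for Rflnb. Gimap4, Fam102a and Rflnb thus ran almost in parallel over the 4 arrays, each a little higher on the second array of its group.

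For Rin3, 3153 probe sets on U74Bv2 were compared. The nearest was Pde3b, a cyclic nucleotide phosphodiesterase (0.172), followed by Ms4a4b, a membrane protein of mature T cells (114822_f_at, 0.185). Sh2d3c, an adaptor protein with an SH2 domain (0.198), Gimap3, the GTP-binding protein IAN4 (0.229), and the other Ms4a4b probe set, 114823_r_at (0.235), came next. Sh2d3c read 3284 and 3907 on the AND arrays, against 1563 and 1285 on the C57BL/6 arrays. It alone of these 5 shared with Rin3 a higher second AND and a lower second C57BL/6 array. Slfn1 and Ms4a4b are also on the list of mature SP markers. With correlation in place of the root mean square difference, 2 of the 5 nearest stayed for Rflnb (Fam102a and Gimap4), 1 for Fam102a (Gimap4) and 1 for Rin3 (Sh2d3c).

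**Figure D3:**
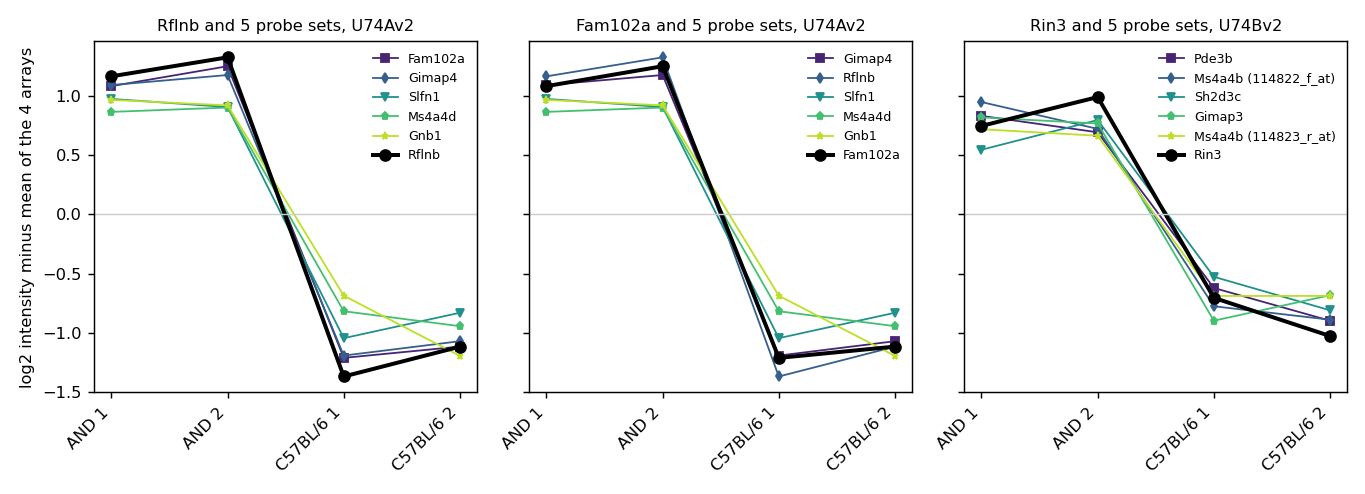
Log2 intensity minus the mean of the 4 arrays for Rflnb 96791_at and Fam102a (U74Av2) and Rin3 (U74Bv2), in black, and for the 5 probe sets most like each, over the 2 AND and 2 C57BL/6 arrays. Gimap4 runs closest to Fam102a (root mean square difference 0.0448), and Rin3 differs more from its nearest, Pde3b (0.172).

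Relatives and partners of the 3 proteins were taken from lists of known interactions and families, and were tested with limma over all probe sets. Of the refilin and filamin list, 12 of 13 genes were on the arrays and 8 were tested, of which 1 was higher, 0 were lower and 7 did not pass, where 0.483% of all tested probe sets were higher and 0.568% lower. At an unadjusted p under 0.05, 3 were higher and 0 were lower, where 7.47% of all tested probe sets were higher. This count takes 1 probe set per gene. Outside it, Fblim1 164436_at was higher and Itgb1 141172_at lower at that threshold, each entering the fit only through the group where it was high. The median log2 fold change of these 8 was 0.42 (range −0.26 to 1.31), beside 0.02 for all tested probe sets, and it was 0.17 without the first C57BL/6 array. The gene that rose was Itgb7, an integrin beta chain of lymphocytes whose tail binds filamin. Its intensity was 7614 and 9281 in AND and 3145 and 3648 in C57BL/6 thymocytes (log2 fold change 1.31 ± 0.17, limma adjusted p = 0.0248). Leaving out each array in turn gave Itgb7 a log2 fold change of 1.17 to 1.45, in fits in which limma called 0 of 12845 probe sets.

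Rflna encodes refilin A, the relative of refilin B. It read 3664 and 3962 in AND and 5005 and 4145 in C57BL/6 thymocytes, with a log2 fold change of −0.26 ± 0.34 (limma adjusted p = 0.80). Actn1, the actin cross-linker alpha-actinin 1, had 12132 and 11320 in AND and 7392 and 7642 in C57BL/6 thymocytes at its brightest probe set. Its log2 fold change of 0.64 ± 0.13 had an adjusted p of 0.0848 from limma, and 0.0245 with the hybridization number as a block. The numbers were not taken to pair the samples, so that the block is an alternative fit only. The other 2 tested Actn1 probe sets had log2 fold changes of 0.74 and 0.04 (adjusted p = 0.399 and 0.971 from limma, 0.345 and 0.979 with the block). Itgb2, the beta chain of LFA-1, had a log2 fold change of 0.48 (limma adjusted p = 0.249). Itgb1, another integrin beta chain, was negative at all its tested probe sets. It had −0.11 at its brightest, where it was counted, and −0.19 and −1.31 at the others (adjusted p = 0.808, 0.825 and 0.121 from limma). The last, 141172_at, read under the limit on both AND arrays and 3771 and 4045 in C57BL/6 thymocytes, and it entered the fit only through the C57BL/6 arrays. The filamin genes Flna and Flnc were not tested, since no group exceeded the limit on both arrays.

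Of the list for Fam102a, 5 of 9 genes were tested, of which 0 were higher and 0 were lower in limma at the adjusted threshold. At an unadjusted p under 0.05, 0 were higher and 1 was lower, where 6.51% of all tested probe sets were lower. This count takes 1 probe set per gene. Outside it, Nfatc1 106921_at was higher and Traf6 98874_at, which entered the fit only through the C57BL/6 arrays, was lower at that threshold. The median log2 fold change was −0.27 (range −1.72 to 0.26), and it was −0.078 without the first C57BL/6 array and −0.38 without the second. Fam102b, the relative of Fam102a, read 1898 and 1707 in AND and 1203 and 1883 in C57BL/6 thymocytes, and these values overlapped (log2 fold change 0.26, limma adjusted p = 0.798). Tec, a tyrosine kinase downstream of the TCR, had lower values in AND thymocytes. It read 336 and 524 in AND, of which the first was under the limit, and 1361 and 1760 in C57BL/6 thymocytes. The log2 fold change was −1.72 ± 0.33 after the first AND value was raised to the limit. Tec entered the fit only through the C57BL/6 arrays, so a difference was built into its selection. The adjusted p was 0.0692 from limma, and 0.0214 with the hybridization number as a block. Nfatc1, a calcium-dependent transcription factor, had log2 fold changes of −0.68, 0.69 and −0.40 at its 3 tested probe sets (adjusted p = 0.408, 0.221 and 0.451 from limma), so that its probe sets disagreed in direction. Tnfrsf11a, which encodes RANK, and Plcg2, Btk and Prdm1 were under the limit on all arrays and were not tested.

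Of the list of Rin and Rab5 genes, 20 of 24 were on the arrays and 11 were tested, of which 0 were higher and 0 were lower in limma at the adjusted threshold, and 2 were higher and 0 were lower at an unadjusted p under 0.05, where 7.47% of all tested probe sets were higher. Those 2 were Bin1 and Als2cl. Outside this count of 1 probe set per gene, Bin1 92220_s_at was higher and Rab22a 112276_at lower at that threshold. The median log2 fold change was 0.17 (range −0.48 to 0.90). Bin1, the membrane-bending partner of Rin3, read 3869 and 3480 in AND and 1686 and 2301 in C57BL/6 thymocytes at probe set 99668_at (log2 fold change 0.90 ± 0.23, limma adjusted p = 0.147). At 92220_s_at it read 2624 and 2642 in AND and 1004 and 1125 in C57BL/6 thymocytes (log2 fold change 1.31 ± 0.26). The adjusted p there was 0.0759 from limma and 0.0311 with the hybridization number as a block. With that block it was 0.0652 at 99668_at. Neither Bin1 probe set overlapped between the groups, where both AND arrays lay above both C57BL/6 arrays for 23% of all tested probe sets.

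Als2cl, another gene with a VPS9 domain, read 6805 and 7226 in AND and 4537 and 4546 in C57BL/6 thymocytes (log2 fold change 0.63 ± 0.12, limma adjusted p = 0.105). With the hybridization number as a block, its adjusted p from limma was 0.186. Of the other Rin genes, Rin1 and Rin2 were not tested, and Rinl read 976 and 1684 in AND thymocytes and under the limit on both C57BL/6 arrays (log2 fold change at least 0.56). It entered the fit only through the AND arrays, and its log2 fold change was 0.95 without the first AND array and 0.17 without the second. The Rab5-family GTPases that VPS9 proteins act on were not called. Rab5a and Rab5c had log2 fold changes of −0.32 and 0.04, and the 4 tested probe sets of Rab22a ranged from −1.45 (limma adjusted p = 0.118) to −0.08. Cd2ap, the adaptor that binds RIN3, had a log2 fold change of 0.34. The differences between Rflnb, Fam102a or Rin3 and these genes were not tested.

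**Figure D4:**
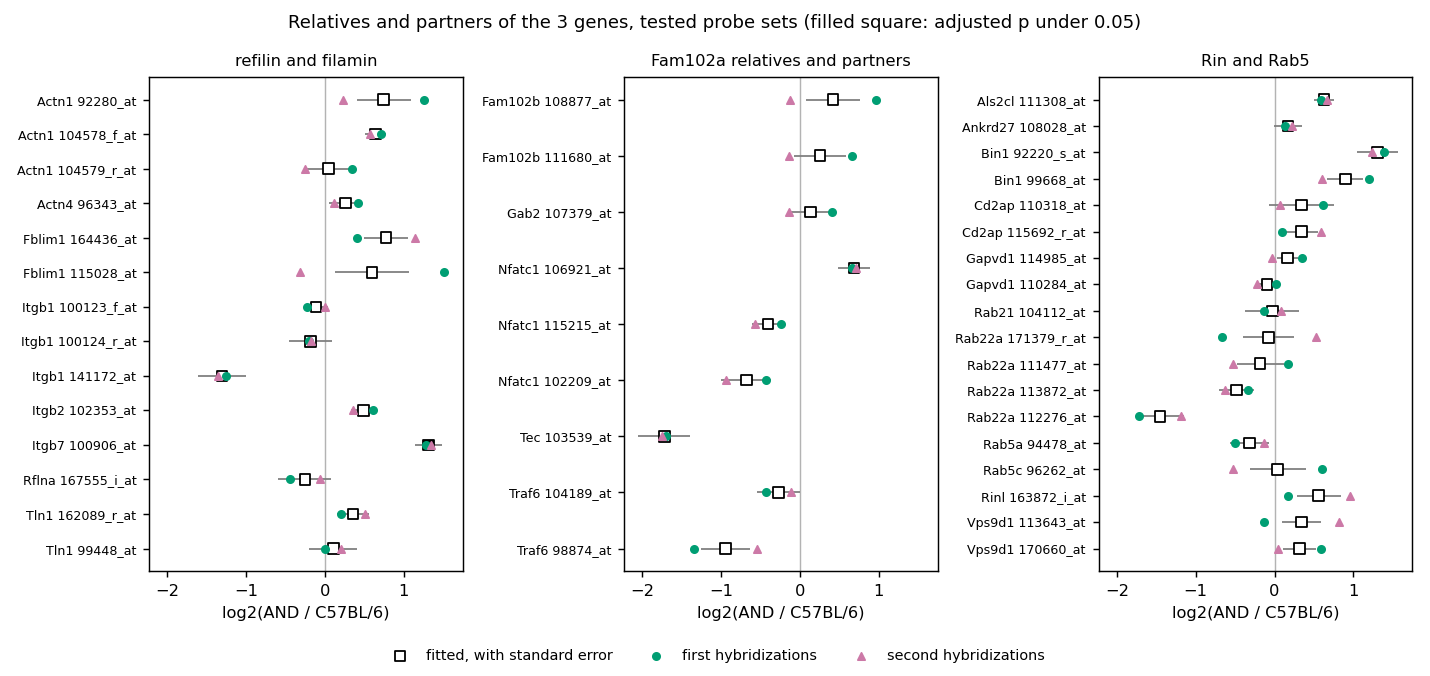
Log2 ratio of AND to C57BL/6 for every tested probe set of the 3 lists of relatives and partners: fitted value with standard error (squares), first hybridizations (circles) and second hybridizations (triangles). A filled square marks an adjusted p under 0.05 from limma, which only Itgb7 at 1.31 reaches.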

How the data were processed

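Per the study's methods, RNA was reverse-transcribed, transcribed in vitro with biotinylated nucleotides and hybridized to U74Av2, U74Bv2 and U74Cv2 arrays, and the authors used Microarray Suite Version 4.0 to analyze the scans. What was deposited are linear intensities, and 20.1% to 37.8% of those on an array were below 0. Their type and scaling target are not stated by the sources used here. Each array was rescaled within its array type on its mean without the lowest and highest 2%. The noise SD came from the negative values, and the detection limit was 2 noise SDs. Affymetrix controls (66 per array type) did not enter the fit. Groups were compared with limma 3.58.1 in R 4.3.3 (lmFit, eBayes with a trend, 1 fit per array type) with Benjamini-Hochberg adjustment over 12845 probe sets. Array types were not compared with each other. Scripts were tested on simulated data. Plots were made in Python 3.11.15 with matplotlib 3.10.9.

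The genes, the lists and the tests were chosen with earlier results of these data known. The text names the 3 genes at every probe set, tested genes of the partner lists, the 5 most alike genes and marker genes. A gene was counted at its tested probe set with the highest mean. In the platform annotation 29197 probe sets had 1 symbol, 724 had several and 6978 had none. RefSeq matched 29110 by gene identifier and changed 0 symbols. All 3 genes had promoter sequences in RefSeq. Alternatives were quantile scaling, other floors and filters, no trend, the hybridization number as a block, leaving out each array, another measure of likeness and the mean over probe sets.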

Additional observations from a re-analysis of the deposited data

How the results depend on the processing

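For Rflnb 96791_at, Fam102a and Rin3, AND thymocytes stayed higher under every alternative run, and for Rflnb 111360_at under every one that kept it. The choice of the genes fixed this direction, so that only the size of the folds could vary here. With a floor at 1 noise SD, Rflnb 111360_at had a log2 fold change of 1.86, and with no floor, an alternative chosen after seeing the data, 2.70. With a floor at 4 noise SDs that probe set was not tested and Rflnb 96791_at had 1.86, since more C57BL/6 readings were raised to the floor. Leaving out each array in turn gave 2.36 to 2.61 for Rflnb 96791_at, 0.48 to 1.23 for Rflnb 111360_at, 2.24 to 2.41 for Fam102a and 1.57 to 1.89 for Rin3. With correlation as the measure of likeness, 2 of the 5 nearest stayed for Rflnb, 1 for Fam102a and 1 for Rin3.

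The count of 62 higher and 73 lower probe sets in limma was less stable. It was 38 and 24 with no filter on low values, a fit of 36701 probe sets whose residual variances were mostly 0 and which is not reliable, and 1 and 9 with no trend in the prior variance. In both, 0 genes of the refilin and filamin list were called higher. Without any 1 array the counts were 0 higher and 0 lower (593 to 1079 higher and 696 to 890 lower at an unadjusted p under 0.05), and the refilin and filamin list had 0 called higher. The residual degrees of freedom are then fewer.

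Hybridizations with the same number shared a day, but their deviations from the group means correlated at 0.04, −0.12 and −0.23 on U74Av2, U74Bv2 and U74Cv2, so that the numbers were not taken to pair the samples. A fit with the hybridization number as a replicate block called 151 higher and 148 lower probe sets, with 2 genes higher in the refilin and filamin list and 1 lower in the Fam102a list. A crossed pairing, chosen after seeing the data, called 231 and 226.

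Leaving out 1 array turned the direction of 11 uncalled partner probe sets. Their log2 fold changes ranged from −0.45 to 0.30 for Rab22a 171379_r_at, −0.37 to 0.0083 for Rab22a 111477_at, −0.27 to 0.35 for Rab5c, −0.23 to 0.037 for Gapvd1 110284_at, −0.29 to 0.23 for Rab21 and −0.16 to 0.85 for Cd2ap 110318_at. For Fam102b 111680_at they ranged from −0.064 to 0.58, for Gab2 from −0.024 to 0.29, for Actn1 104579_r_at from −0.19 to 0.27, for Itgb1 100124_r_at from −0.44 to 0.066 and for Tln1 99448_at from −0.30 to 0.51.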
